A study of Mus musculus with 4 samples.

Results

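Heat shock proteins, DNAJ co-chaperones and subunits of the cytosolic chaperonin were examined as one set of transcripts in an RNA immunoprecipitation experiment on the mouse retina. The members were all genes of the count table whose symbols begin with Hspa, Hsp90, Hspb, Dnaja, Dnajb, Dnajc or Cct2 to Cct8, followed by their numbers, together with Hspd1, Hspe1 and Hsph1. After 4 names of pseudogenes were dropped, 81 of 52550 genes remained. They comprised 14 HSP70 genes (Hsph1 included), 3 HSP90 genes, 8 small heat shock genes, the HSP60 and HSP10 pair, 4 DNAJA, 13 DNAJB and 28 DNAJC genes, and 9 CCT genes.

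Retinas of wild-type C57BL/6 mice at postnatal day 0 were dissociated with papain, and RNA was recovered with an antibody against YTHDF2, a protein that binds mRNA carrying N6-methyladenosine (m6A). This pulldown (RIP) and the RNA before it (input) each gave 2 replicate libraries, and the comparison asks which transcripts are more frequent in RIP than in input. All groups share genotype, strain, tissue and age. An IgG pulldown is not analysed here, so that binding to YTHDF2 and to the beads cannot be told apart. No label says whether the replicates came from separate animals, and the p-values measure the spread between these libraries, which may be technical.

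Molecular chaperones bind unfolded or partly folded proteins and help them reach or keep their native state. HSP70 proteins do so in cycles of ATP hydrolysis, which J-domain proteins of the DNAJA, DNAJB and DNAJC classes trigger and HSP110 proteins such as Hsph1 reset by exchanging the nucleotide, while HSP90 acts later on kinases, receptors and other clients. The ring-shaped chaperonins enclose their substrates: HSP60 with its lid HSP10 in mitochondria, and CCT in the cytosol, where actin and tubulin, the main cytoskeletal proteins of growing neurites, are its best known substrates. YTHDF2 is known for directing m6A-bearing mRNAs to decay, and the short sequence GGACT is a frequent context of the methylated adenosine.

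Hspa12a, a distant HSP70 relative (ENSMUSG00000025092), is a minus-strand gene of chromosome 19, between positions 58795750 and 58943654 of GRCm38. Its longest annotated mRNA has 5734 nt, with a 5′ UTR of 95 nt, a coding sequence of 2028 nt and a 3′ UTR of 3611 nt. GGACT was searched on the mRNA strand only. It occurs 9 times in the Hspa12a mRNA, 3 times in the coding sequence and 6 times in the 3′ UTR. Its closest paralog, Hspa12b, has an mRNA of 3413 nt with 7 such sites, 2 of them in the 3′ UTR of 1103 nt. Per kb of mRNA, Hspa12a has 1.57 sites and Hspa12b 2.05. These sites are shown because Hspa12a is the HSP70 gene with the largest fold change in RIP and Hspa12b is the sequence to set beside it. The windows of the 3′ UTRs, with GGACT in capitals and 8 bases on each side, read 5′ to 3′ from GENCODE M21 transcripts:
Hspa12a, chr19:58799316-58799336, minus strand: gccccctgGGACTcatctgca
Hspa12a, chr19:58799071-58799091, minus strand: cttagtgaGGACTgggtgcag
Hspa12a, chr19:58798891-58798911, minus strand: ttatggtgGGACTcacagagg
Hspa12a, chr19:58797424-58797444, minus strand: gagggaagGGACTtcaaatgc
Hspa12a, chr19:58797195-58797215, minus strand: gctttctaGGACTcctgctaa
Hspa12a, chr19:58796480-58796500, minus strand: atttcactGGACTtcctttgg
Hspa12b, chr2:131145436-131145456, plus strand: gcaacagaGGACTaaacactg
Hspa12b, chr2:131145525-131145545, plus strand: cagaaccgGGACTgaaggtta

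Within the coding sequence, the sites of Hspa12a that lie in a single exon and the first of Hspa12b's 4 read as follows:
Hspa12a, chr19:58825323-58825343, minus strand: gctgccagGGACTtctaccat
Hspa12a, chr19:58821081-58821101, minus strand: gcagggtcGGACTttgagaac
Hspa12b, chr2:131138559-131138579, plus strand: gaggctcgGGACTggctctac

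A match to these letters is a description and not a methylated site. GGACT is common: it was found in 87.7% of 21747 annotated mRNAs and in 74 of the 80 members with an annotated mRNA (92.5%), with a median of 3 sites per mRNA in both. The count table carries no position along a transcript, so no reads can be set beside the windows.

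The libraries held 19530226 to 39499994 counts, of which 2083594 to 4175459 fell on protein-coding genes. Ribosomal RNA sequence at a pair of genes made up 55.5% and 55.0% of the input totals and 85.3% and 87.8% of the RIP totals, and mitochondrial transcripts 18.6% and 19.4% against 0.578% and 0.522%. All 8 retinal ganglion cell markers were detected in every library, with a summed level of 30.3 and 25.6 FPKM (fragments scaled for gene length and library size) in the inputs and 10.03 and 7.70 FPKM in RIP. The 7 progenitor, 4 photoreceptor precursor and 6 amacrine and horizontal cell markers were detected throughout, while the lens and pigment epithelium lists summed to at most 0.202 FPKM and the 4 blood and vessel markers to at most 2.23 FPKM. In such bulk RNA, the number of cells of a type and the RNA per cell cannot be told apart. Input is the RNA before the pulldown, so the lower ganglion cell sum in RIP is not a count of cells. The part of cell composition in the results was not tested.

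Members took similar shares of the protein-coding counts in all libraries, 0.701% and 0.615% in the inputs and 0.743% and 0.751% in RIP. Per length, Hsp90ab1, the constitutive cytosolic HSP90, stood first with 82.6 and 48.3 FPKM in the inputs and 51.1 and 38.1 FPKM in RIP. It alone made up 39.9% and 25.6% of the members' summed FPKM in the inputs. Hspa8, the constitutive cytosolic HSP70, followed with 14.6 and 13.4 FPKM, Hspe1 with 9.51 and 8.81 FPKM and Cct2 with 6.50 and 6.03 FPKM. The CCT subunits together made up 11.4% and 13.5% of the members' summed FPKM in the inputs and 19.6% and 20.7% in RIP, a description that was not tested. Small heat shock transcripts made up 2.89% and 2.05% of that sum in the inputs and 0.537% and 0.676% in RIP.

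Of the 81 members, 64 had enough counts to be tested. Another 8 had no count in any library (Hspb2, Hspb3, Hspb7, Hspb8, Dnajb7, Dnajc5b, Dnajc5g and Cct8l1), where a count of 0 allows up to 3 counts. The remaining 9 had at most 11 counts in a library. Among them were the heat-inducible Hspa1a, with 5 and 3 counts before the pulldown and 3 and 6 after it, and its near-identical copy Hspa1b, with 3 counts in every library. Reads shared by such copies could have been dropped or split in counting, and how they were handled is not given in the sources used here.

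Transcripts were called enriched or depleted if they differed by at least 1 on the log2 scale at an unadjusted p below 0.05 (edgeR quasi-likelihood test), the limits of the study's own target list. By these limits 7 of 64 members (10.9%) were enriched in RIP, where the background over all 13632 tested genes was 9.43%. Depleted were 14 members (21.9%), against a background of 17.2%. With an adjusted p below 0.05 as well, 3 members were enriched and 8 depleted, where the backgrounds were 3.48% and 9.78%. These shares lie close to the background, and among protein-coding genes alone 10.3% were enriched and 14.7% depleted. Both RIP libraries lay above both inputs for 17 members (26.6%) and below them for 25 (39.1%), against 29.6% and 31.3% of all tested genes. The number of members called depended on which library was left out, as it did among all tested genes. The members' median log2 fold change was -0.19, that of all tested genes -0.05 and that of protein-coding genes 0.04.

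Scaled by library size alone, 13 members were enriched and 10 depleted, so that enriched members made up 56.5% of the calls in place of 33.3%. All tested genes moved the same way, to 17.3% enriched and 12.7% depleted. That scaling moved the median of all tested genes up by 0.326 on the log2 scale, and every direction below is relative to the TMM scaling (trimmed mean of M values) of the counts. Of the 64 tested members, 50 had the same sign in both replicates, as did 9588 of all 13632 tested genes and 8299 of 11953 protein-coding genes.

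**Figure D1:**
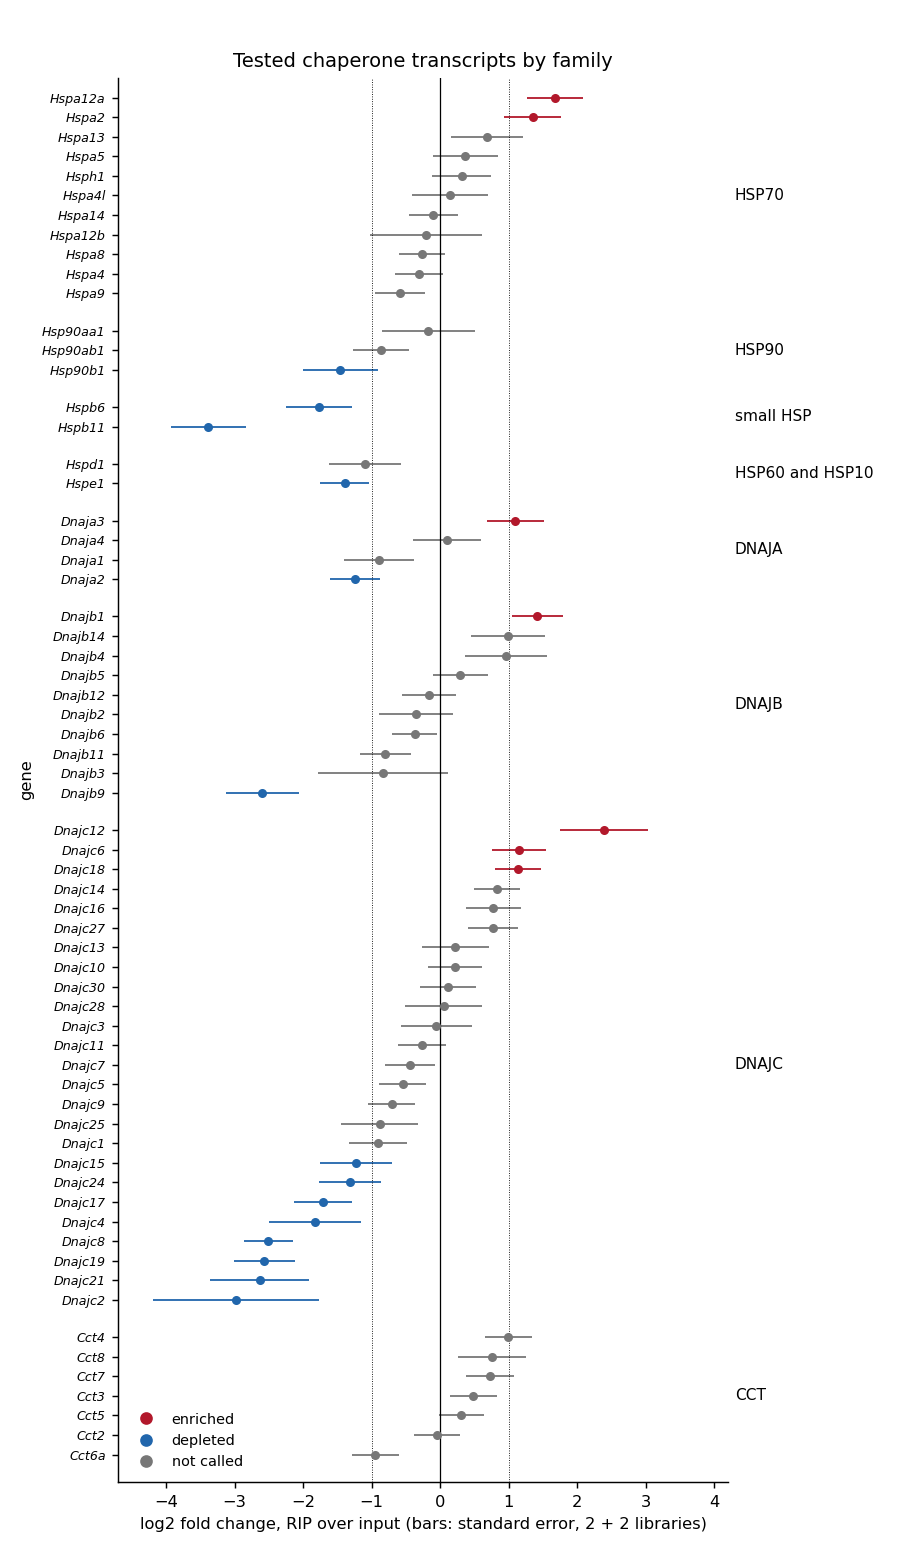
Log2 fold change of RIP over input (x axis) for the 64 tested members, grouped by family (y axis); points are edgeR estimates, bars their standard errors over 2 input and 2 RIP libraries, and dotted lines the limits of 1 and -1. The 7 enriched members are spread over the HSP70, DNAJA, DNAJB and DNAJC families, and 8 of the 14 depleted members are DNAJC genes.

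Within the HSP70 family, Hspa12a and Hspa2 were enriched (18.2%, background 9.43%) and none of the 11 tested genes was depleted (background 17.2%). Counts of Hspa12a were 98 and 193 in input, 346 and 326 in RIP, or 2.94 and 5.62 CPM (counts scaled to a common library size) against 13.7 and 13.6. Both RIP libraries stood above both inputs, and the inputs differed from each other more than the RIP libraries did. The mean rose from 4.28 ± 1.90 to 13.6 ± 0.114 CPM (SD, n = 2). The log2 fold change was 1.67 ± 0.41 (SE), a 3.18-fold difference, with an edgeR adjusted p of 0.0317. Hspa12a was called in each of the 14 alternative analyses, with log2 fold changes of 1.08 to 2.21. In the 10 with all 4 libraries, adjusted p-values (edgeR, DESeq2 or limma) were 0.00345 to 0.0687. Leaving out input replicate 1 or 2 gave 1.28 or 2.21, and leaving out RIP replicate 1 or 2 gave 1.72 or 1.73. With 1 library left in a group the spread came from the other group alone, although inputs differed more than RIP libraries. Those calls are therefore weak evidence.

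Hspa2, an HSP70 required in male germ cells, had 1.17 and 1.60 CPM in the inputs and 3.37 and 3.70 CPM in RIP, with no overlap between groups. Its log2 fold change was 1.35 ± 0.42 (SE) with an edgeR adjusted p of 0.0692, and the call was lost without RIP replicate 1 or 2, at 1.48 and 1.345, and on log2(FPKM + 1). The other 9 tested HSP70 genes had log2 fold changes between -0.58 and 0.68, and with Hspa12a left out the family's median was 0.02.

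Hspa8 had 78.1 and 63.2 CPM in the inputs and 65.2 and 52.2 CPM in RIP, overlapping groups with a log2 fold change of -0.27 ± 0.34 (SE). Hspa9, the mitochondrial HSP70, had 9.96 and 15.7 against 8.32 and 8.81 CPM. Both RIP values were the lower ones, and the fold change of -0.58 ± 0.36 (SE) on the log2 scale did not pass. Hspa5, the HSP70 of the endoplasmic reticulum also known as BiP, had 3.72 and 9.62 CPM in the inputs against 8.36 and 8.86 CPM in RIP. Its log2 fold change of 0.37 ± 0.47 (SE) became 1.21 without input replicate 2 and -0.16 without input replicate 1.

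Hspa13, an HSP70 that lacks the peptide-binding domain, and Hspa4l, an HSP110, moved with the inputs in a like way. Hspa13 had 1.41 and 3.47 CPM in the inputs and 4.99 and 2.83 CPM in RIP, with a log2 fold change of 0.68 ± 0.53 (SE) that became 1.47 when input replicate 2 was left out and 0.18 when replicate 1 was. Hspa4l had 2.28 and 7.87 CPM in the inputs and 5.95 and 5.24 CPM in RIP, with 0.14 ± 0.55 (SE) that became 1.29 without input replicate 2 and -0.49 without input replicate 1. For all 3 genes the RIP libraries lay above input replicate 1, and not both above input replicate 2. Hsph1, the stress-inducible HSP110, had 2.16 and 4.02 CPM against 3.81 and 3.87, and Hspa4, another HSP110, 7.08 and 8.71 against 6.42 and 6.36. Hspa14, which works at the ribosome, had 6.39 and 5.51 CPM against 5.63 and 5.45. None of these 3 passed, with log2 fold changes of 0.31, -0.31 and -0.10. The annotated extent of Hspa14 overlaps Gm45902 on the same strand, and reads of the overlap cannot be assigned from the table.

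**Figure D2:**
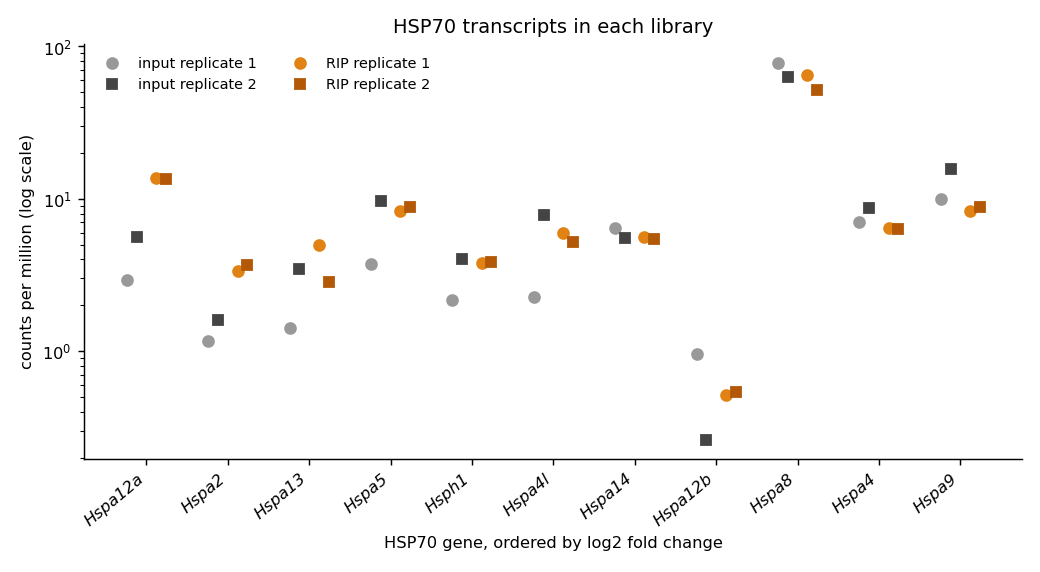
CPM on a log scale (y axis) of the 11 tested HSP70 genes (x axis, ordered by log2 fold change) in each of the 4 libraries; points are single libraries. Hspa12a and Hspa2 are the genes whose RIP points both lie above both input points, while Hspa5, Hspa13 and Hspa4l show inputs over 2-fold apart, as does Hspa12b.

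Since a ratio within a library does not depend on how libraries are scaled, Hspa12a was set against each of its 10 tested paralogs by the log2 ratio of their counts (0.5 added to each). Against Hspa12b, the endothelial relative, the ratio was 1.60 and 4.35 in the inputs and 4.68 and 4.60 in RIP. Hspa12b itself had 0.960 and 0.262 CPM in the inputs and 0.515 and 0.540 CPM in RIP, that is 32, 9, 13 and 13 counts, and its log2 fold change was -0.21 ± 0.81 (SE). The groups did not overlap in the ratio, although input replicate 2 came within 0.25 of the RIP library of its replicate. Counting error on the 9 counts of Hspa12b in that input is part of this value.

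Against Hspa8, the most abundant paralog, the ratio was -4.72 and -3.49 in the inputs and -2.25 and -1.94 in RIP. For Hspa9 it was -1.75 and -1.48 against 0.72 and 0.62, so that Hspa12a counts passed from below to above those of Hspa9. The difference of means, RIP minus input, was 1.67 for Hspa12b, 2.01 for Hspa8 and 2.29 for Hspa9, the highest. It was 0.38 for Hspa2, the lowest, where replicate 2 differed by only 0.07. All 10 ratios were higher in both RIP libraries than in both inputs, with a median difference of 1.51. The exact two-sided permutation test gave p = 0.3333 for each of the 10 pairs, which is the smallest that 2 against 2 allows, and 0.3333 after Benjamini-Hochberg adjustment. All 10 share the counts of Hspa12a, so that they are not independent of each other. Hspa12a was chosen with its enrichment known and has the largest fold change of the HSP70 genes. The positive direction of the differences follows from that choice, and the ratios are no separate evidence of enrichment.

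**Figure D3:**
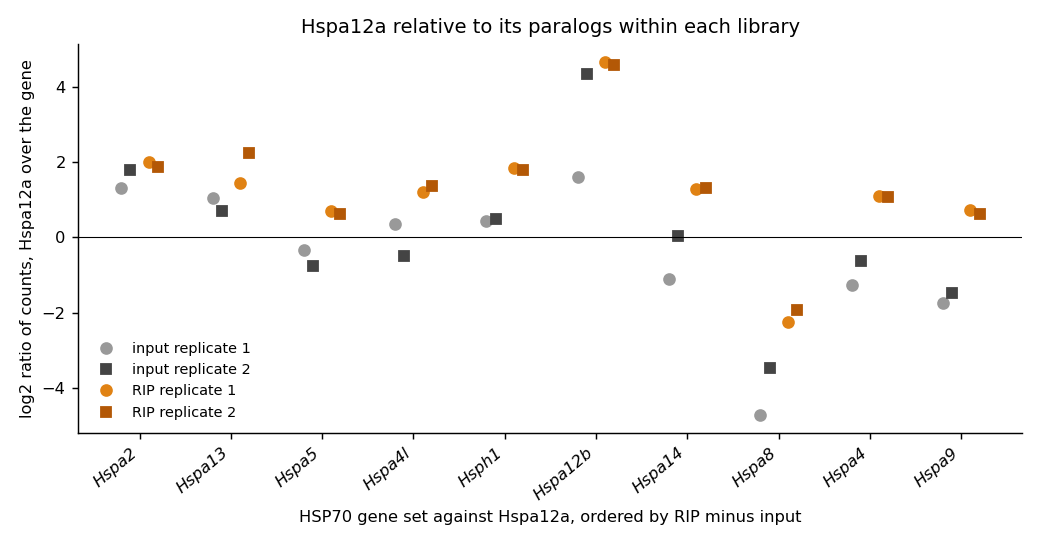
Log2 ratio of Hspa12a counts over those of each of 10 HSP70 paralogs (y axis) within each library, with paralogs ordered by the difference of RIP and input (x axis); points are single libraries. In every column both RIP points lie above both input points, by 0.38 for Hspa2 to 2.29 for Hspa9 in the means.

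The 3 HSP90 genes had negative log2 fold changes, that of Hsp90aa1 turning positive under library size alone. Only Hsp90b1, the HSP90 of the endoplasmic reticulum (GRP94), was depleted (33.3%, background 17.2%). Hsp90b1 had 7.17 and 24.2 CPM in the inputs and 5.15 and 6.28 CPM in RIP, a log2 fold change of -1.46 ± 0.54 (SE) with an edgeR adjusted p of 0.114. The high input replicate 2 carried much of it: without that library the value was -0.33, and without input replicate 1 it was -2.08. The call was also lost without RIP replicate 1 or 2, at -1.28 and -1.57. Hsp90ab1 had 308 and 159 CPM in the inputs and 129 and 128 CPM in RIP. Both RIP values lay below both inputs, and the log2 fold change of -0.86 ± 0.41 (SE) did not pass (adjusted p of 0.194, edgeR). Without input replicate 2 it was -1.26, beyond the limit on fold change, and without input replicate 1 it was -0.31. Hsp90aa1, the inducible form, had 3.99 and 24.6 CPM in the inputs, the second largest gap between inputs among members, and 13.6 and 11.7 CPM in RIP. Its log2 fold change of -0.17 ± 0.68 (SE) turned to 1.67 without input replicate 2, to 0.12 under library size alone and to 0.33 with the replicate as a block.

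Both tested small heat shock transcripts were depleted (background 17.2%). The mRNAs of Hspb11 and Hspb6 have 608 and 1363 nt, and 41.7% of protein-coding genes with an mRNA under 2000 nt were depleted. Hspb11, which despite its name is a subunit of the intraflagellar transport complex of cilia (IFT25), showed the lowest fold change of any member. Its counts were 243 and 192 in input, 8 and 22 in RIP, or 7.29 and 5.60 CPM against 0.317 and 0.915. The log2 fold change was -3.38 ± 0.55 (SE), a level 10.4-fold lower, with an edgeR adjusted p of 0.00645. Hspb6 (HSP20) had 8.19 and 3.61 CPM in the inputs and 1.74 and 1.705 CPM in RIP, a log2 fold change of -1.77 ± 0.49 (SE) with an adjusted p of 0.0463 (edgeR). It was not called without RIP replicate 1 or 2, at -1.68 and -1.65, and moved to -1.06 without input replicate 1. The extent of Hspb6 overlaps Lin37 and Proser3 on the opposite strand. Lin37 was itself depleted with a log2 fold change of -1.35, and whether the counting used strand is not given in the sources used here.

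For the mitochondrial chaperonin, Hspe1 (HSP10) had 17.4 and 14.3 CPM in the inputs and 5.07 and 6.98 CPM in RIP, a log2 fold change of -1.39 ± 0.36 (SE) with an edgeR adjusted p of 0.0373. Its mRNA of 774 nt is among the shortest of the set. With the trends on transcript length and GC content taken out, the value was 0.26 and the call was lost, as it was without RIP replicate 1, at -1.09. Hspd1 (HSP60), its neighbour on the opposite strand with overlapping extents, had 4.98 and 16.0 CPM against 4.68 and 5.11. The log2 fold change of -1.10 ± 0.53 (SE) did not pass, and it was -1.71 without input replicate 1 but -0.02 without input replicate 2. Hspd1 passed as depleted under DESeq2, at -1.10, and where 10 counts were required in every library, at -1.18.

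Among the 4 DNAJA genes, the main partners of cytosolic HSP70 with a mitochondrial form, 1 was enriched and 1 depleted (25.0% each, backgrounds 9.43% and 17.2%). Dnaja3, the mitochondrial form, had 2.85 and 1.78 CPM in the inputs and 4.88 and 5.03 CPM in RIP. The log2 ratio was 1.10 ± 0.41 (SE) with an edgeR adjusted p of 0.115, and the call was lost without input replicate 2, at 0.80, and without RIP replicate 1 or 2, at 1.22 and 1.17. Vasn, which overlaps Dnaja3 on the same strand, was also enriched with 1.21. Dnaja2 had 9.21 and 11.8 CPM in the inputs and 5.03 and 3.82 CPM in RIP, a log2 fold change of -1.24 ± 0.37 (SE) with an adjusted p of 0.0591 (edgeR), and its call was lost without RIP replicate 1 or 2, at -1.38 and -0.99. It was also lost with the length and GC trends taken out, at -0.79, under library size alone, at -0.89, and on log2(FPKM + 0.1), at -0.94. Dnaja1 had 9.84 and 30.9 CPM in the inputs and 10.9 and 11.02 CPM in RIP, and its log2 fold change of -0.89 ± 0.51 (SE) did not pass. Without input replicate 1 it was -1.49, and without input replicate 2 it was 0.16.

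Dnajb1, the heat-inducible HSP40 that activates HSP70, was the enriched member of the DNAJB class. Its counts were 409 and 261 in input, 619 and 687 in RIP, or 12.3 and 7.61 CPM against 24.5 and 28.6. Both RIP libraries stood above both inputs, and the log2 fold change was 1.42 ± 0.37 (SE) with an edgeR adjusted p of 0.0400. Dnajb1 and Hspa12a were the only enriched members called under all 14 alternatives. In FPKM, Dnajb1 stood 19th among members by its mean in the inputs and 4th in RIP.

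Dnajb9 (ERdj4), a co-chaperone of BiP in the endoplasmic reticulum, was depleted. It had 6.00 and 6.91 CPM in the inputs and 0.555 and 1.58 CPM in RIP, and its log2 fold change was -2.60 ± 0.53 (SE) with an edgeR adjusted p of 0.0163. Dnajb6, which suppresses aggregation of polyglutamine proteins, had the highest mean FPKM of DNAJB transcripts in the inputs, though not in RIP or in input replicate 1 alone. Its level was 22.1 and 23.7 CPM against 17.2 and 18.1, a log2 fold change of -0.37 ± 0.32 (SE). Dnajb14, anchored in the membrane of the endoplasmic reticulum, had 1.89 and 6.30 CPM in the inputs and 7.17 and 9.11 CPM in RIP, with 0.99 ± 0.54 (SE) on the log2 scale. Dnajb4 had 0.990 and 3.38 CPM against 5.59 and 2.91, with 0.96 ± 0.60 (SE). Neither passed here, and both passed the limits with the replicate as a block, at 1.21 and 1.11 with adjusted p-values of 0.0824 and 0.163 (edgeR). They also passed when input replicate 2 was left out, each at 2.10.

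DNAJC proteins share only the J domain, and their tested transcripts spread from -2.98 to 2.39 on the log2 scale, with 3 of 25 enriched (background 9.43%) and 8 depleted (32.0%, background 17.2%). Dnajc12, a partner of the aromatic amino acid hydroxylases, had the highest fold change of any member. Its counts were 40 and 9 in input, 93 and 96 in RIP, or 1.20 and 0.262 CPM against 3.69 and 3.99. The log2 fold change was 2.39 ± 0.65 (SE) with an edgeR adjusted p of 0.0441, and it was 1.67 at the lowest and 3.85 at the highest when a library was left out. Dnajc6 (auxilin), the neuronal factor that brings HSP70 to clathrin-coated vesicles for uncoating, had 2.58 and 3.15 CPM in the inputs and 7.37 and 5.36 CPM in RIP. It differed by 1.15 ± 0.39 (SE) on the log2 scale with an adjusted p of 0.0885 (edgeR). Dnajc18 had 9.09 and 7.99 CPM in the inputs and 20.6 and 17.0 CPM in RIP, with 1.14 ± 0.34 (SE) and an adjusted p of 0.0582 (edgeR). The calls of Dnajc6 and Dnajc18 were lost when the length and GC trends were taken out and without RIP replicate 1, at 0.98 and 1.08.

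The depleted DNAJC genes belong to different machineries. Dnajc8, a spliceosome-associated protein, had 18.2 and 14.9 CPM in the inputs and 2.81 and 2.99 CPM in RIP, a log2 fold change of -2.51 ± 0.36 (SE) with an edgeR adjusted p of 0.00367. Dnajc17, also associated with the spliceosome, had 4.08 and 3.67 CPM against 0.991 and 1.37, with -1.71 ± 0.43 (SE) and an adjusted p of 0.0335 (edgeR), and was not called without RIP replicate 1, at -1.41. With the length and GC trends taken out, the value of Dnajc17 was -0.41 and the call was lost. Dnajc19, part of the motor that imports proteins into the mitochondrial matrix, had 15.3 and 10.1 CPM against 1.51 and 2.79. The log2 ratio of RIP to input was -2.57 ± 0.45 (SE) with an edgeR adjusted p of 0.00857. Fxr1, on the opposite strand over part of Dnajc19, was not called, with -0.38.

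Dnajc21, a factor of ribosome assembly, fell from 44 and 154 counts in input to 16 and 7 in RIP, a log2 fold change of -2.63 ± 0.72 (SE) with an edgeR adjusted p of 0.0456. Dnajc2, a J protein at the ribosome, had 29 and 211 counts in input, 22 and 0 in RIP. The groups overlapped in CPM, at 0.870 and 6.15 against 0.872 and 0, and its fitted value of -2.98 ± 1.22 (SE) was -0.98 without input replicate 2 and -1.99 without RIP replicate 2, with no call in either case. The call of Dnajc21 was lost without the same libraries, at -1.50 and -2.15. Dnajc15, a mitochondrial inner membrane protein, had 3.21 and 1.57 CPM against 1.07 and 0.956, and Dnajc24, which takes part in the modification of elongation factor eEF2, had 2.97 and 2.83 against 0.951 and 1.37. Dnajc4 had 3.51 and 2.21 against 1.31 and 0.291 CPM. These 3 had log2 fold changes of -1.23, -1.32 and -1.83 with adjusted p-values of 0.157, 0.0882 and 0.109 (edgeR). Their calls were lost without RIP replicate 2, at -1.05, -1.52 and -1.03. Dnajc15 was not called without input replicate 1 either, at -0.63, nor without RIP replicate 1, at -1.21, Dnajc24 not without RIP replicate 1, at -0.99, and Dnajc4 not without input replicate 1, at -1.46. With the length and GC trends taken out, Dnajc24 and Dnajc4 lost their calls at -0.051 and -0.73, and all 3 lost them under library size alone. Dnajc15 and Dnajc2 were not called by DESeq2 or without a filter on low counts. With the replicate as a block, the adjusted p was 0.00643 for Dnajc4 and 0.00263 for Dnajc2 (edgeR). Dnajc9, a histone chaperone and the DNAJC transcript with the most FPKM in the inputs, had 19.2 and 15.7 CPM against 9.12 and 12.2, with -0.71 ± 0.35 (SE). Dnajc5, the cysteine string protein of synaptic vesicles, had 40.9 and 29.5 against 23.8 and 24.3 CPM, with -0.55 ± 0.34 (SE).

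Of the cytosolic chaperonin, 7 subunits were tested and none was called enriched (background 9.43%) or depleted (background 17.2%). Both RIP libraries lay above both inputs for 5 of the 7 (71.4%), where 29.6% of all tested genes did so, and the median log2 fold change was 0.48. Cct4 came closest to the limit, with 8.28 and 9.68 CPM in the inputs and 15.1 and 20.7 CPM in RIP and a log2 fold change of 0.9953 ± 0.35 (SE) at an edgeR adjusted p of 0.0954. It passed in several of the alternatives, among them the one with length and GC trends taken out, at 1.45, where the p-value stayed that of the main fit. Cct8 had 3.57 and 10.6 CPM against 12.3 and 11.6, with 0.76 ± 0.50 (SE), and passed without input replicate 2, at 1.74. Cct7, Cct3 and Cct5 had 0.72, 0.48 and 0.31. Cct2 had 20.6 and 16.9 CPM against 19.4 and 16.9, with -0.05 ± 0.33 (SE). Cct6a was the subunit with both RIP libraries below both inputs, at 22.6 and 16.6 against 10.6 and 9.69 CPM, and its log2 fold change of -0.95 ± 0.34 (SE) had an adjusted p of 0.106 (edgeR). It passed as depleted where 10 counts were required in every library, at -1.01, and was -1.15 without input replicate 2. Tcp1, the remaining subunit, whose symbol is outside the rule, had 13.9 and 17.7 CPM against 16.3 and 21.5, with 0.25 ± 0.35 (SE). Differences between subunits were not tested.

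Of 40 tested partners and regulators of the set, none was enriched (background 9.43%) and 12 were depleted (30.0%, background 17.2%). With an adjusted p below 0.05 as well, 9 were depleted (background 9.78%), and the median log2 fold change was -0.56. Their mRNAs were short, the median length being 2130 nt where that of all tested protein-coding genes was 3338 nt. Of the 12 depleted genes 9 had an mRNA under 2000 nt, a length at which 41.7% of protein-coding genes were depleted. Prefoldin, the complex that hands unfolded actin and tubulin to CCT, supplied 5 of the 12. Pfdn5 had 82.2 and 67.9 CPM in the inputs and 4.52 and 8.19 CPM in RIP, with -3.56 ± 0.43 (SE) and an edgeR adjusted p of 0.00184. Pfdn4, Pfdn2, Pfdn6 and Pfdn1 had -3.34, -2.68, -2.64 and -1.20, and the mRNAs of the 5 had 807 to 1735 nt. Vbp1, a further prefoldin subunit, had -0.59 ± 0.77 (SE) and was not called.

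Pdcl3, a phosducin-like protein that binds CCT, had 25.8 and 26.3 CPM in the inputs and 1.86 and 2.66 CPM in RIP, with -3.52 ± 0.38 (SE) and an edgeR adjusted p of 0.00136. Its mRNA of 3914 nt was the longest of the 12. Bag1, a nucleotide exchange factor of HSP70, and Hsbp1, which binds heat shock factor, had -2.73 and -1.96. Ppid, Sdf2l1, Hikeshi and Tomm34, with -1.87, -1.81, -1.55 and -1.03, completed the 12. Hsf1, the heat shock transcription factor, had 4.44 and 1.69 CPM against 3.41 and 1.87, with -0.21 ± 0.55 (SE). Among 7 tested relatives that carry other symbols, Hscb, a mitochondrial J protein of iron-sulfur cluster assembly, was depleted, its counts being 47 and 21 in the inputs, 0 and 4 in RIP. Its log2 fold change was -3.56 ± 1.14 (SE) with an edgeR adjusted p of 0.0748.

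Fold changes followed mRNA length in the members as in all genes. Across 63 tested members with an annotated mRNA, Spearman's rho of the log2 fold change with mRNA length was 0.431, and across 11932 protein-coding genes it was 0.488. These are descriptions across genes that share the same 4 libraries. Of 14 members with an mRNA under 2000 nt, none was enriched and 7 were depleted, where 1.74% and 41.7% of protein-coding genes of that length were. Of 18 members with at least 4000 nt, 3 were enriched and 1 depleted (5.56%), the latter being Dnajc15 with 6193 nt. Among all protein-coding genes of that length, 18.1% were enriched and 3.67% depleted. The number of GGACT sites had a rho of 0.217 in members and 0.403 in protein-coding genes, and the number per kb -0.117 and 0.0757. With smooth trends on length and GC content taken out of the fold changes, 6 members were enriched and 9 depleted, Hspa12a among the former at 1.17. Over all tested genes the shares were then 5.4% and 10.6%. The p-values stayed those of the fit before removal, so these calls only re-apply the limit on fold change.

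**Figure D4:**
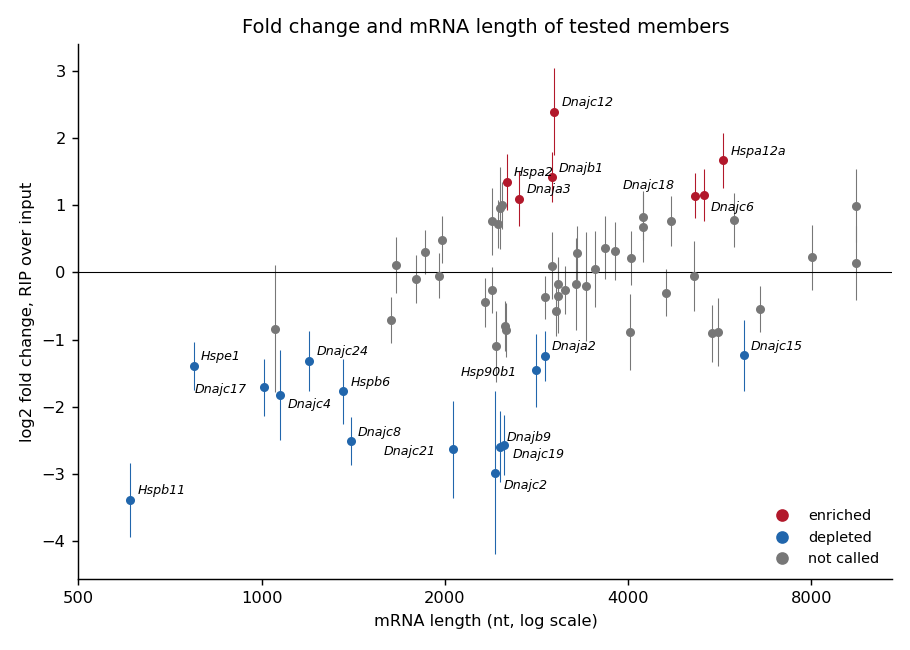
Log2 fold change of RIP over input (y axis; bars are standard errors over 2 + 2 libraries) against the length of the longest annotated mRNA in nt on a log scale (x axis) for the 63 tested members with an annotated mRNA; called members are named. The 7 depleted members under 2000 nt lie at the lower left and no enriched member lies there.

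The inputs differed from each other more than the RIP libraries did. Between the inputs, 18 of 64 members (28.1%) were over 2-fold apart in CPM, 14 of them higher in replicate 2, where 24.8% of all tested genes were over 2-fold apart. Between the RIP libraries, 5 members were (7.81%, against 9.57% of all tested genes). The ratio of input replicate 2 to replicate 1 had a Spearman's rho with mRNA GC content of -0.622 over 63 members and -0.604 over 11932 protein-coding genes. Of 13 members with a GC content under 44%, 9 (69.2%) were over 2-fold higher in input replicate 2, as were 54.5% of 2151 protein-coding genes of such GC content. Dnajc2, Hsp90aa1, Hspa4l, Hsp90b1, Dnaja1, Hspd1 and Hspa5 are among the 14. The part of GC content in these differences between the inputs was not tested. The trends taken out above were those of the fold change of RIP over input.

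**Figure D5:**
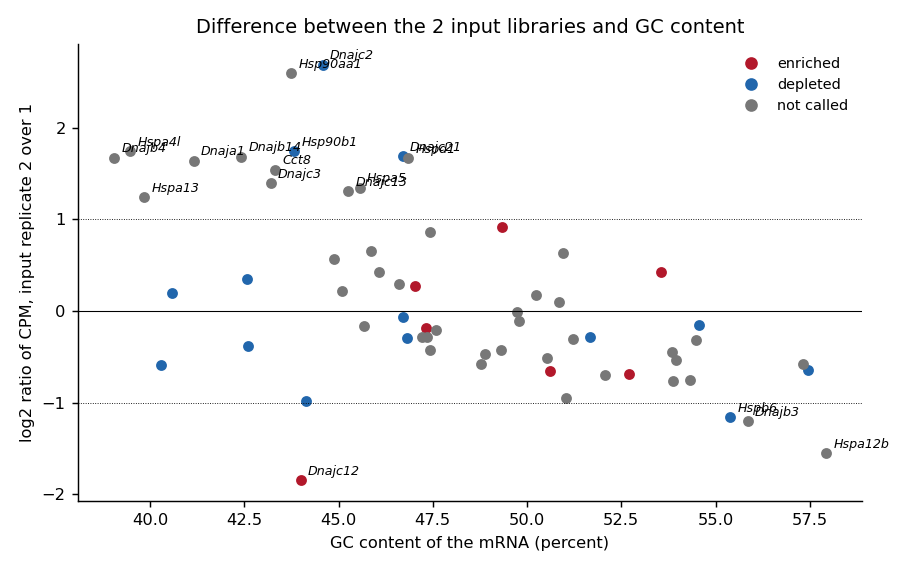
Log2 ratio of CPM in input replicate 2 over input replicate 1 (y axis) against GC content of the longest annotated mRNA in percent (x axis) for 63 tested members; dotted lines mark a 2-fold difference and members beyond them are named. Members under 44% GC lie mostly above 0, and Hspa12b, Dnajb3 and Hspb6, above 55%, lie below -1. Dnajc12, whose GC content is lower than that of Hspa12b, Dnajb3 and Hspb6, also lies below -1 and is the lowest point, at -1.84.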

How the data were processed

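RNA of 2 input and 2 anti-YTHDF2 RIP libraries had been prepared with a stranded kit from 100 ng each. Values deposited by the authors were raw counts per gene, not normalized, and FPKM, scaled by the authors for the length of a gene and the size of a library. The submitters' processing notes name STAR 2.5, HTSeq and GRCm38; annotation, strand setting and handling of multiply mapped reads are not given in the sources used here.

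The count model was fitted with edgeR 4.0.16 under R 4.3.3 (filterByExpr with a minimum count of 10 and a minimum total of 15, TMM factors of 0.845 to 1.29, glmQLFit and glmQLFTest over 13632 genes), and p-values were adjusted by Benjamini and Hochberg's method. CPM values use the TMM-scaled library sizes, and the standard error is the log2 fold change divided by the root of its F value. Positions, mRNAs (longest protein-coding transcript) and GC content came from GENCODE M21, which held 52403 of the 52550 identifiers, all 81 members and mRNAs for 80 of them. Intervals and the floor of 3 counts cover counting error only. The code was tested on simulated data.

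Groups and replicate numbers came from the labels. The design text gives each replicate an input and a pulldown, so equal numbers pair the libraries by design. The replicate differences of inputs and of RIP libraries had a Spearman correlation of -0.0326 and a Pearson r of -0.0293 over 13632 genes. The main model left the number out and a block was run as an alternative.

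Named with values were Hspa12a and the other tested HSP70 genes, every called member, and in each family the tested member with the highest input FPKM and those with the highest and lowest fold change. Dnajb14, Dnajb4, Dnaja1, Dnajc5, Cct8, Cct7, Cct3, Cct5, Hspa1a and Hspa1b, the genes overlapping members, and the partners named were added after their values were seen. Members and lists were chosen with earlier results of these data known. Alternatives were library size alone, upper quartile factors, DESeq2 1.42.0, other filters, a block on the replicate number, log2(FPKM + 0.1) and log2(FPKM + 1) in limma 3.58.1, removal of length and GC trends (mgcv 1.9.3), and each library left out. Removal of trends changed the fold change only, kept the p-value of the fit it started from and called no gene whose sign turned.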

Additional observations from a re-analysis of the deposited data

How the results depend on the processing

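Over 38 named members and their alternatives, 526 comparisons with the value given above kept direction and call in 406, lost the call in 67, gained it in 16 and changed sign in 37. Called under all 14 alternatives were 2 of the 7 enriched members (Hspa12a and Dnajb1) and 4 of the 14 depleted ones (Hspb11, Dnajb9, Dnajc8 and Dnajc19), Hspb11 not being tested where 10 counts were required in every library. The number of enriched members was 13 under library size alone and 2 on log2(FPKM + 1), that of depleted members 4 on log2(FPKM + 1), 9 with trends removed and 8 with trends removed and the replicate block. Of all tested genes, 17.3% were enriched under library size alone and 2.66% on log2(FPKM + 1). Depleted were 7.28% on log2(FPKM + 1), 10.6% with trends removed and 10.2% with the block as well. With an adjusted p below 0.05 as well, 5 were enriched and 4 depleted under library size alone, 1 and 4 without a filter, and 5 and 4 were depleted on log2(FPKM + 0.1) and log2(FPKM + 1). Leaving out single libraries gave 3 to 15 enriched and 6 to 15 depleted members, or 0 to 15 of either with an adjusted p below 0.05. The 15s came without input replicate 2, the 0s without a RIP library, and the lone library of a group was assumed to vary like the other group. Without input replicate 1, 10 were enriched and 14 depleted. With the replicate block 9 were enriched and 14 depleted (10 with an adjusted p below 0.05). Only Dnajb14 and Dnajb4 changed their calls. Dnajc2 and Dnajc4 stayed depleted, and their adjusted p (edgeR) came below 0.05.

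The members' median minus that of all tested genes, -0.139, shrank to -0.0174 with DESeq2, -0.0124 without a filter, -0.0196 on log2(FPKM + 0.1) and -0.0104 on log2(FPKM + 1), all of which test more genes. DESeq2 gave 8 enriched and 13 depleted members. Library size alone turned the sign of Cct2 (0.31), Hsp90aa1 (0.12), Hspa12b (0.16), Hspa14 (0.24), Hspa4 (0.020) and Hspa8 (0.10), and dropping the filter that of Cct2 (0.041). The replicate block turned Hsp90aa1 (0.33) and Hspa12b (0.018). On log2(FPKM + 0.1) and log2(FPKM + 1), Cct2 had 0.22 and 0.19, Hsp90aa1 0.57 and 0.31, Hspa12b 0.14 and 0.017, and Hspa14 0.15 and 0.093. With trends removed, without and with the block, Cct2 had 0.57 and 0.61, Dnajc9 0.12 and 0.15, Hsp90aa1 0.063 and 0.56, Hspa14 0.61 and 0.65, and Hspe1 0.26 and 0.29, while Hsph1 had -0.0056 without it. With single libraries left out, the value ran from -0.18 to 0.13 for Cct2, -0.957 to 1.67 for Hsp90aa1, -0.86 to 0.9966 for Hspa12b, -0.21 to 0.0078 for Hspa14, -0.49 to 1.29 for Hspa4l, -0.16 to 1.21 for Hspa5 and -0.068 to 0.83 for Hsph1. The ends of these ranges came without an input, except for 0.13 of Cct2, without RIP replicate 2. None of these was called in the main analysis except Hspe1, and the cause was not tested. The 10 ratios of Hspa12a to a paralog kept their direction with a pseudocount of 1 and when taken from FPKM with a pseudocount of 0.1.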

Other observations

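Sorted by place in the cell, the members gave small counts, to be read against backgrounds of 9.43% enriched and 17.2% depleted among all tested genes. Of 8 listed members of the endoplasmic reticulum, 2 were depleted (25.0%, Hsp90b1 and Dnajb9). None of the 8 was enriched, and their median log2 fold change was -0.43. This list is not complete, and its counts and median hold for the listed genes only. Dnajb14, described above as anchored in the membrane of the endoplasmic reticulum, was not on it and had 0.99. Of 9 mitochondrial members, Dnaja3 was enriched (11.1%) and Dnajc19, Dnajc15 and Hspe1 were depleted (33.3%), with a median of -0.58. Of 3 tested members that act on vesicles or endosomes, Dnajc6 was enriched, Dnajc13 had 0.22 and Dnajc5 -0.55. Among 8 tested members of the heat-inducible list, Dnajb1 was enriched and Hspe1 depleted (12.5% each), with a median of -0.22. All tested genes had a median of -0.05, and the differences between these lists were not tested.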
